A study of Mus musculus with 6 samples.

Results

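The genes described here are 35 genes of the interferon response and of antigen presentation, taken by symbol from a written list. All 35 symbols were found among the 30281 gene symbols of the mouse libraries. By role they are 7 transcriptional regulators (Stat2, Irf1, Irf2, Irf3, Irf5, Irf7 and Irf9), 3 cytoplasmic RNA sensors (Ifih1, Ddx58 and Dhx58), the ubiquitin-like modifier Isg15 with its protease Usp18, 15 antiviral effectors, 3 guanylate-binding proteins (Gbp2, Gbp3 and Gbp7) and 5 genes of antigen presentation (Tap1, Tap2, B2m, H2-K1 and H2-D1). RNA-Seq covered 6 libraries, with 1 library per condition. Of the 2 libraries of mouse embryonic fibroblasts (MEFs), 1 was Tsc2-/- and 1 was Tsc2+/+, and both were labelled p53-/-, although RNA of the p53 gene Trp53 was 26.3 and 28.5 TPM in the Tsc2+/+ and Tsc2-/- libraries, so its level did not by itself check that label. The other 4 libraries came from 2 lines of Tsc2-null mouse kidney epithelial cells, MKOC and TJ, each left untreated or given 100 nM rapamycin for 18 hours in serum-free medium with albumin. TJ cells were labelled as tumor-derived, from a secondary tumor in C57BL6 mice. No Tsc2-positive kidney line and no rapamycin-treated MEFs were among the libraries, and each MEF genotype was 1 library, so Tsc2 genotype cannot be told apart from other differences between the MEF cultures.

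Interferons are secreted proteins that bind cell surface receptors and activate Jak kinases, which phosphorylate transcription factors. A complex that holds Stat2 and Irf9 binds the interferon-stimulated response element in the promoters of antiviral genes, and a second element, the gamma-activated site, answers to interferon gamma. Class I molecules, made of a heavy chain such as H2-K1 or H2-D1 and the light chain B2m, display peptides that the transporter Tap1-Tap2 carries into the endoplasmic reticulum. Tsc2 restrains the kinase complex mTORC1, which rapamycin inhibits.

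Levels are given in TPM (a transcript abundance per length, scaled to the same total in every library) summed over the transcripts of a gene, and intervals on them are 95% Wilson intervals that cover counting error only. Total estimated counts lay between 2.29e+07 and 3.75e+07 per library, and the Tsc2+/+ MEF library was the deepest. Tsc2 RNA was 22.6 TPM in Tsc2+/+ MEFs, 10.5 TPM in the library labelled Tsc2-/- and 19.1 to 49.1 TPM in the Tsc2-null kidney lines, so RNA of the gene was present in every library and its level did not by itself check the labels. Most markers fitted the labelled cell types, with exceptions in both lists. The epithelial gene Epcam was at most 0.347 TPM in every library, Krt19 was 55.6 TPM in Tsc2-/- MEFs and at most 0.80 TPM in kidney lines, and Emx2 was 11.2 and 23.6 TPM in MEFs and 24.7 to 30.9 TPM in kidney lines. Of the fibroblast genes, Dcn was 7.08 and 422 TPM in Tsc2+/+ and Tsc2-/- MEFs and 6.73 to 50.3 TPM in kidney lines, Thy1 was listed at 0 in Tsc2+/+ MEFs, and Lum was at most 0.372 TPM in every library. Of the markers that separated the cell types, the fibroblast gene Col1a2 reached 788 to 996 TPM in MEFs and at most 0.254 TPM in kidney lines, and the kidney epithelial gene Cdh16 reached 395 to 720 TPM in kidney lines and at most 0.0916 TPM in MEFs. Among 12 immune cell markers, the pan-leukocyte gene Ptprc was at most 0.0732 TPM in every library. The summed level of those 12 markers was 3.0 and 9.89 TPM in MEFs and 19.9 to 36.0 TPM in kidney lines, where Csf1r (11.3 to 30.3 TPM) and Cd68 (4.48 to 8.01 TPM) made up most of it. Csf1r was higher with rapamycin in both lines, and the part of these cells or genes in the results was not tested.

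Promoter windows from RefSeq (GRCm38.p6, 250 bases before to 50 bases after the start of each gene) were matched by symbol for 29 of the 35 genes. Those without a window were Dhx58, Usp18, Oas2, Mx1, Mx2 and Tap2. Both strands were searched for GAAANNGAA, the core of the interferon-stimulated response element, and for TTCNNNGAA, the gamma-activated site, and matches of both motifs overlapped each other in Bst2 and Ifitm3. The first motif was found in 16 of the 29 genes (55.2%), against 9.76% of the 27025 genes with a window. The second was found in 9 of the 29, against 9.55% of all genes. A match is only a run of letters, and the genes were listed as interferon-stimulated, so these shares describe the list. Stretches of 7 promoters are shown because their genes carry the results below. Gbp2, Gbp3, Gbp7, Ifit1 and Irf1 rose most with rapamycin among the genes with a match, Isg15 was strongly lower in Tsc2-/- MEFs, and B2m holds a match but was within 2-fold between MEFs and did not pass with rapamycin. The stretches lie at chr3:142620513-142620631 (Gbp2), chr3:142559894-142560043 (Gbp3), chr3:142530186-142530335 (Gbp7), chr19:34640739-34640888 (Ifit1), chr4:156200819-156200968 (Isg15, minus strand), chr11:53769864-53770013 (Irf1) and chr2:122147537-122147686 (B2m), with all but Isg15 on the plus strand. Each runs 5′ to 3′ on the strand of its gene, in lower case with the matches of either motif in capitals.
Gbp2: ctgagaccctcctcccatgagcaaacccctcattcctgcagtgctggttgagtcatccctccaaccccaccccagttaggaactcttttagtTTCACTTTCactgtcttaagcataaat
Gbp3: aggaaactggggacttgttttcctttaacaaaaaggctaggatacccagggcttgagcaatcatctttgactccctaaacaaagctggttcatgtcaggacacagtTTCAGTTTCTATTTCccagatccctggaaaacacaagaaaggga
Gbp7: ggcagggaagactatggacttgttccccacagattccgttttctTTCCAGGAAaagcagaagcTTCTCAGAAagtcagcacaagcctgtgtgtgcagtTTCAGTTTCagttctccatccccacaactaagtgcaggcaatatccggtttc
Ifit1: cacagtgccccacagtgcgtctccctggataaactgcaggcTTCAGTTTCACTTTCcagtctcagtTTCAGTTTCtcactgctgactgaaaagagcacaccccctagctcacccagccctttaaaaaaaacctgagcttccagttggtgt
Isg15: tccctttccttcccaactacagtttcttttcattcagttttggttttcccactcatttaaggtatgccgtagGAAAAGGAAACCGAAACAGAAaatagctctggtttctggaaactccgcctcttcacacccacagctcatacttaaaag
Irf1: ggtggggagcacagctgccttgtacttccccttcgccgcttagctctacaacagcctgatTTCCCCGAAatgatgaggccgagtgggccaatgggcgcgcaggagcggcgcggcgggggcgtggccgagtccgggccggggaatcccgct
B2m: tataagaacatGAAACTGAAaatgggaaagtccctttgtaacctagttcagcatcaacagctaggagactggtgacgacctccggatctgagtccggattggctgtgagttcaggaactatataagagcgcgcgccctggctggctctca

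All 3 guanylate-binding protein genes, which lie in 1 stretch of chromosome 3, hold the first motif within 58 bases of the RefSeq start, read on the opposite strand of the gene, and Gbp7 also holds 2 matches of the second. In Gbp2 that match lies within the first exon of a GENCODE transcript that starts at position 142620602, upstream of the RefSeq start. Isg15 and Ifit1 hold 3 matches of the first motif each, in Isg15 as 1 overlapping run that begins 78 bases before the start. Irf1 holds no match of the first motif and 1 of the second, 90 bases before the start. Irf7, Irf9 and Oasl2, which also rose with rapamycin (below), hold neither motif in these windows. Of the genes with a window that rose with rapamycin, 8 of 14 hold the first motif, and of those tested that did not rise, 8 of 14 do as well. The counts for the MEF comparison were 8 of 14 genes that were at least 2-fold lower in Tsc2-/- MEFs and 8 of 15 that were not.

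Summed over the 35 genes, the level was 7175 TPM in Tsc2+/+ MEFs, 3793 TPM in Tsc2-/- MEFs and 3058 to 4106 TPM in the kidney lines. In MEFs the most abundant were B2m, the membrane proteins Ifitm3 and Bst2, and Isg15, which made up 56.9% of that sum in Tsc2+/+ MEFs and 67.8% in Tsc2-/- MEFs. In the kidney lines they were B2m, H2-D1, Bst2 and H2-K1, with 76.4% to 82.6% of the sum. The 5 antigen presentation genes summed to 1598 and 1405 TPM in Tsc2+/+ and Tsc2-/- MEFs and to 2234 to 2718 TPM in kidney lines. The other 30 genes summed to 5578 and 2388 TPM in those MEFs and to 824 to 1388 TPM in kidney lines. The kidney lines thus had a higher summed level of antigen presentation genes than either MEF library and a lower one of the other 30 genes. In bulk RNA, fewer expressing cells and less RNA per cell cannot be told apart.

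**Figure D1:**
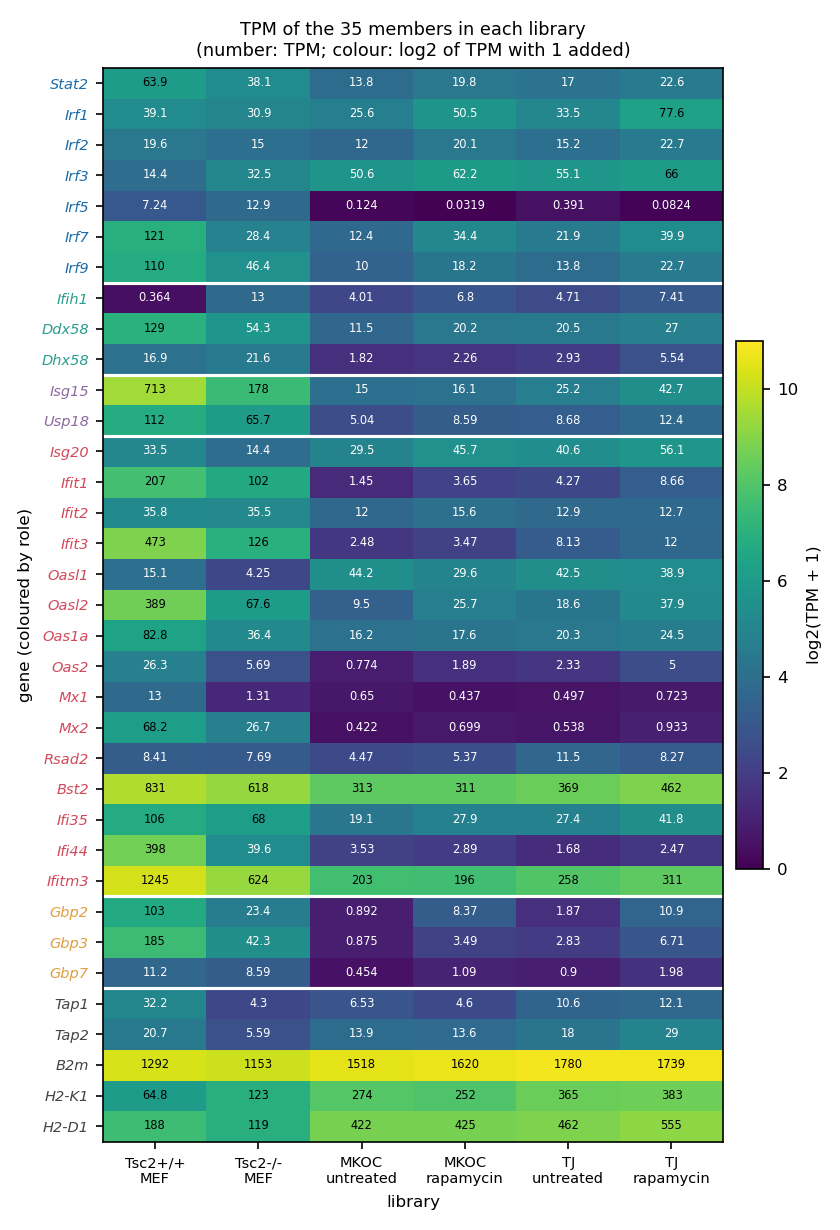
TPM of each of the 35 genes (rows, coloured and separated by role in the order regulators, RNA sensors, ubiquitin-like, antiviral effectors, guanylate-binding proteins, antigen presentation) in each of the 6 libraries (columns), 1 library per column, with colour giving log2 of TPM with 1 added. Most effectors are brightest in Tsc2+/+ MEFs, where Isg15 reaches 713 TPM against 15.0 TPM in untreated MKOC cells, whereas B2m is bright in every library (1153 to 1780 TPM).

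The first comparison asked how interferon response genes differed between MEFs with and without Tsc2. Most of the list was lower in Tsc2-/- MEFs, with 18 of the 35 genes at least 2-fold lower, 15 between those limits and 2 at least 2-fold higher, Ifih1 and Irf3. Over all 12771 genes with at least 1 TPM in either MEF library, 5.18% were at least 2-fold lower and 25.2% at least 2-fold higher. The median log2 fold change (1 added to TPM) was -1.01 over the list and 0.45 over all genes. Markers of other cell types also differed between these libraries: 11 kidney epithelial markers summed to 11.6 TPM in Tsc2+/+ and 108.9 TPM in Tsc2-/- MEFs, of which the keratin Krt19 made up 0.0506 and 55.6 TPM. Krt18, Krt7 and Emx2 were also at least 2-fold higher in Tsc2-/- MEFs (log2 fold changes 4.43, 2.84 and 1.01), and the other markers of that list were under 1 TPM in both. The part of these markers in the differences was not tested. There was 1 library per genotype, so no replicate error or p-value can be given. The MEF libraries also differed in scale, with a median ratio of 1.31 over 7377 genes with at least 10 TPM in both. With that ratio scaled to 1, 23 genes of the list were at least 2-fold lower and 1 higher, and over all genes 1092 were lower and 2103 higher, in place of 662 and 3222.

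Among the regulators, Irf7, a factor that drives interferon production and is itself interferon-induced, was 121 TPM in Tsc2+/+ and 28.4 TPM in Tsc2-/- MEFs, a log2 fold change of -2.05. Irf9, the DNA-binding partner of Stat2, was lower by a log2 fold change of -1.22 and Stat2 by -0.73. Irf1 and Irf2, factors that bind overlapping promoter elements, had log2 values of -0.33 and -0.37. Irf3, a factor activated by phosphorylation when RNA sensors fire, went the other way, with 14.4 TPM in Tsc2+/+ and 32.5 TPM in Tsc2-/- MEFs (log2 fold change 1.12, and 0.75 with the libraries scaled). Irf5 was 7.24 and 12.9 TPM, under 2-fold. Of the 7 regulators, Irf7 and Irf9 were thus at least 2-fold lower in Tsc2-/- MEFs. Irf3 was at least 2-fold higher as deposited but under 2-fold with the libraries scaled. Over all genes as deposited, 5.18% were at least 2-fold lower and 25.2% at least 2-fold higher.

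The RNA sensors differed in opposite directions. Ifih1, which encodes the sensor of long double-stranded RNA MDA5, had the largest difference of all 35 genes as deposited (with scaled libraries Ifi44 was first, at -3.68 against 3.12), with 0.364 TPM (interval 0.274 to 0.485) in Tsc2+/+ MEFs and 13.0 TPM (12.1 to 13.9) in Tsc2-/- MEFs, a log2 fold change of 3.36. It came from 47 and 771 estimated counts, although the Tsc2+/+ library was the deeper one. Kidney lines held 4.01 to 7.41 TPM of Ifih1, so the Tsc2+/+ MEF library stood below every other library for this gene. Ddx58, the RNA sensor RIG-I, was 129 and 54.3 TPM in Tsc2+/+ and Tsc2-/- MEFs (log2 fold change -1.23). Dhx58, the helicase LGP2 that modulates both sensors, was 16.9 and 21.6 TPM, a log2 fold change of 0.34 that turned to -0.03 once the libraries were scaled.

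Isg15, a ubiquitin-like protein that is conjugated to other proteins, was 713 TPM in Tsc2+/+ and 178 TPM in Tsc2-/- MEFs (log2 fold change -1.99). Usp18, which removes Isg15 from its targets, had a log2 value of -0.76. Of the 15 antiviral effectors, 10 were at least 2-fold lower in Tsc2-/- MEFs and none was at least 2-fold higher. The largest difference was in Ifi44, an interferon-induced cytoplasmic protein, with 398 TPM (interval 393 to 402) against 39.6 TPM (37.4 to 41.8), a log2 fold change of -3.30. Mx1, a dynamin-like GTPase that blocks viral replication, was 13.0 and 1.31 TPM (log2 fold change -2.60). Oasl2, a member of the oligoadenylate synthetase family, was 389 and 67.6 TPM (log2 fold change -2.51), and Oas2, an enzyme of that family that activates RNase L, was 26.3 and 5.69 TPM (log2 fold change -2.03). The intervals of all these pairs lay apart, which speaks to counting error alone.

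Ifit3 and Ifit1, which belong to a family that binds viral RNA and its partners, were 473 and 207 TPM in Tsc2+/+ MEFs and 126 and 102 TPM in Tsc2-/- MEFs (log2 fold changes -1.91 and -1.01). The third member of that family in the list, Ifit2, was 35.8 and 35.5 TPM and thus almost equal. Ifitm3, a membrane protein that limits entry of enveloped viruses, stood just inside the 2-fold limits at 1245 and 624 TPM (log2 fold change -0.99). Rsad2, the antiviral enzyme viperin, was 8.41 and 7.69 TPM. The remaining effectors below the 2-fold limit were Oasl1, Mx2, Isg20 and Oas1a, with log2 fold changes from -1.62 to -1.16, and those within it were Bst2 (-0.43) and Ifi35 (-0.64).

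Gbp2 and Gbp3, guanylate-binding GTPases that attack vacuoles holding pathogens, were lower by nearly the same amount. Gbp2 was 103 TPM in Tsc2+/+ and 23.4 TPM in Tsc2-/- MEFs, and Gbp3 was 185 and 42.3 TPM (log2 fold changes -2.09 and -2.11). Gbp7 was 11.2 and 8.59 TPM (log2 fold change -0.35). In antigen presentation, both subunits of the peptide transporter were at least 2-fold lower in Tsc2-/- MEFs. Tap1 was 32.2 and 4.30 TPM (log2 fold change -2.65) and Tap2 was 20.7 and 5.59 TPM (-1.72). The class I chains differed less and not in 1 direction, since H2-K1 was 64.8 and 123 TPM (log2 fold change 0.91), H2-D1 188 and 119 TPM (-0.66) and B2m 1292 and 1153 TPM (-0.16). H2-D1 passed 2-fold with scaled libraries (-1.04), and H2-K1 was then at 0.53.

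**Figure D2:**
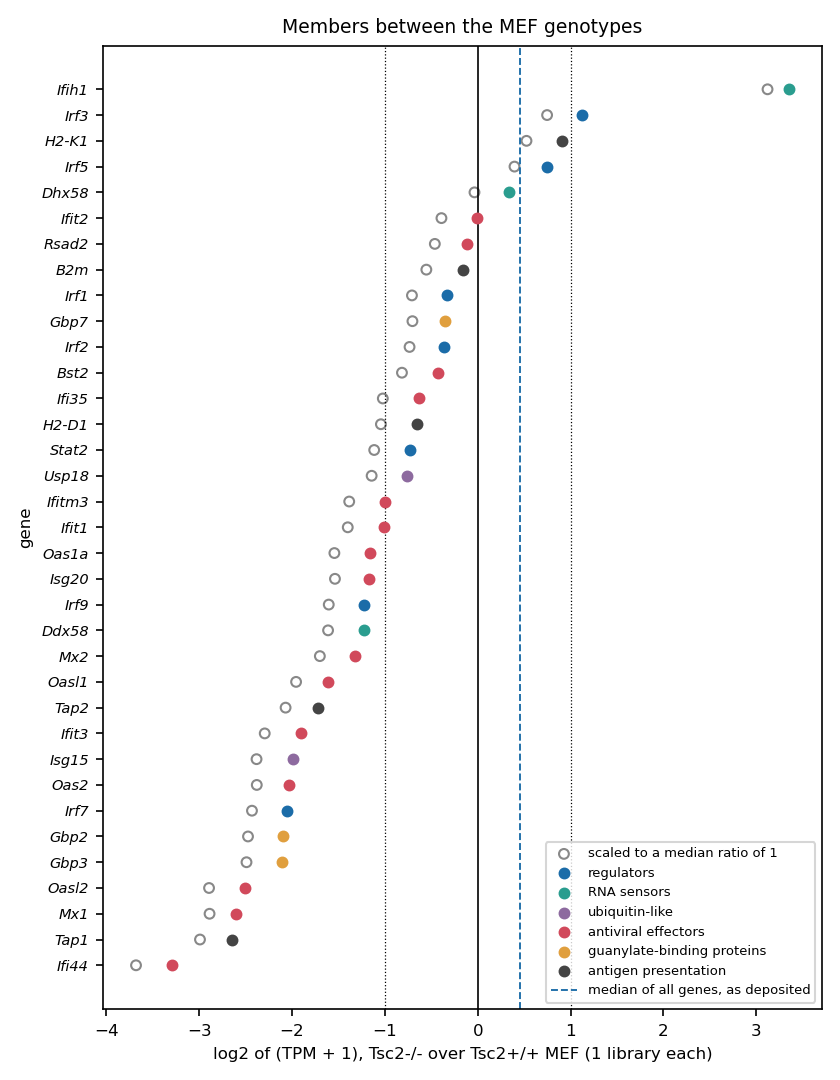
Log2 ratio of TPM with 1 added, Tsc2-/- over Tsc2+/+ MEFs, for each of the 35 genes, with filled points as deposited (coloured by role), open points after scaling the libraries to a median ratio of 1, dotted lines at 2-fold, and the dashed line at the median of all genes as deposited (0.45). The points run from -3.30 (Ifi44) to 3.36 (Ifih1), and scaling moves every point to the left.

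Of 127 further genes of the pathway that were measured (128 were listed), 96 had at least 1 TPM in either MEF library, and 34 of these were at least 2-fold lower and 8 at least 2-fold higher in Tsc2-/- MEFs. Among them, the 42 other interferon-stimulated genes that passed the filter included 23 that were lower, led by Ifi27l2a (212 and 4.58 TPM, log2 fold change -5.26), Tgtp2 (-3.93) and Tgtp1 (-2.96), and 3 that were higher, namely Trim25, Ifitm1 and Slfn2. Trim25, the ubiquitin ligase that activates Ddx58, was 0.0295 TPM (interval 0.0126 to 0.0690) in the Tsc2+/+ library but 35.5 TPM in the Tsc2-/- one. Among sensing genes, Ifi203, Zbp1 and Ifi204 were lower (log2 fold changes -3.47, -2.90 and -2.32) and Tmem173, the adaptor STING, was higher (2.06). In class I presentation, 5 of 21 genes were lower, led by H2-T10 (-2.09), H2-T23 (-1.51) and the immunoproteasome subunit Psmb9 (-1.38), and 2 were higher, Psmb8 (0.381 and 9.11 TPM) and H2-Q6. Of 5 class II presentation genes with at least 1 TPM, H2-DMb1 (-2.40) and H2-DMb2 (-1.17) were lower and Ifi30 (1.13) was higher. Of 14 receptors and Jak-Stat genes, 1 was lower and 1 higher, the latter Il10rb, a receptor chain shared with lambda interferons (log2 fold change 1.74).

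The second comparison asked how the same genes responded to rapamycin in the Tsc2-null kidney lines, with the lines as replicates (edgeR's quasi-likelihood test on counts with the cell line as a covariate, Benjamini-Hochberg adjustment over all genes). Of the 35 genes, 34 passed the filter on low counts, 17 rose, 1 fell and 16 did not pass the test. Over all 12952 genes tested, 17.5% rose and 17.4% fell. The median log2 fold change was 0.52 over the 34 genes and 0.02 over all genes tested. On normalized counts each of the 17 genes that rose was higher with rapamycin in both lines, although in TPM Tap2 was slightly lower in treated MKOC cells. Marker sums moved with rapamycin too, from 1683 to 2592 TPM in MKOC cells and from 1875 to 2907 TPM in TJ cells for 11 kidney epithelial genes, and from 26.7 to 52.0 TPM and from 7.75 to 13.4 TPM for 9 fibroblast genes, and their part in the changes was not tested. The call depends on the covariate, since only Gbp2 passed in a fit with treatment alone (adjusted p = 0.0254). With 2 lines and 4 libraries, 1 residual degree of freedom was left per gene, and the spread was largely borrowed across genes.

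All 3 guanylate-binding proteins rose, and Gbp2 and Gbp3 rose most of the 34 genes tested. Gbp2 was 0.892 TPM (interval 0.644 to 1.23) in untreated MKOC cells and 8.37 TPM (7.48 to 9.37) with rapamycin, and 1.87 and 10.9 TPM in TJ cells. Its log2 fold change was 2.93 ± 0.24 (SE, 2 lines), with an edgeR adjusted p of 2.89e-05. Gbp3 went from 0.875 to 3.49 TPM in MKOC cells and from 2.83 to 6.71 TPM in TJ cells (log2 fold change 1.64 ± 0.25, edgeR adjusted p = 8.42e-04). Gbp7 went from 0.454 to 1.09 TPM and from 0.90 to 1.98 TPM (1.19 ± 0.25, edgeR adjusted p = 0.00474). For each of the 3 genes both treated libraries lay above both untreated ones, and with rapamycin both lines still held less of all 3 than either MEF library.

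Of the 6 regulators tested, 5 rose. Irf1 went from 25.6 to 50.5 TPM in MKOC cells and from 33.5 to 77.6 TPM in TJ cells (log2 fold change 1.08 ± 0.12, edgeR adjusted p = 1.50e-04), and its treated libraries also lay above both MEF libraries. Irf7 went from 12.4 to 34.4 TPM and from 21.9 to 39.9 TPM (1.07 ± 0.15, edgeR adjusted p = 6.37e-04). Irf9, Irf2 and Stat2 rose by smaller amounts, with log2 fold changes of 0.79, 0.66 and 0.46. Irf3 was at 0.29 ± 0.11, which did not pass (edgeR adjusted p = 0.0596). Irf5 had at most 7.47 estimated counts in any kidney library and was not tested.

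Of the RNA sensors, Ifih1 rose by a log2 fold change of 0.63 and Ddx58 by 0.52, while Dhx58 was 1.82 and 2.26 TPM in MKOC cells and 2.93 and 5.54 TPM in TJ cells and did not pass (log2 0.37 ± 0.28). Isg15 was 15.0 and 16.1 TPM in untreated and treated MKOC cells and 25.2 and 42.7 TPM in TJ cells, and did not pass (0.45 ± 0.20, edgeR adjusted p = 0.103). Its protease Usp18 rose (0.62 ± 0.18), a call that was lost with DESeq2 (adjusted p = 0.0874). Among the effectors, 5 of 15 rose, 1 fell and 9 did not pass. Oas2 went from 0.774 to 1.89 TPM in MKOC cells and from 2.33 to 5.0 TPM in TJ cells (log2 fold change 1.22 ± 0.21, edgeR adjusted p = 0.00201). Oasl2 went from 9.50 to 25.7 TPM and from 18.6 to 37.9 TPM (1.18 ± 0.14, edgeR adjusted p = 1.89e-04). Ifit1 went from 1.45 to 3.65 TPM and from 4.27 to 8.66 TPM (1.15 ± 0.20, edgeR adjusted p = 0.00176). Of these 3 effectors, only Oasl2 had both treated libraries above both untreated ones, since untreated TJ cells held more Oas2 and Ifit1 than treated MKOC cells.

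Ifi35 and the exonuclease Isg20 rose by log2 fold changes of 0.57 and 0.53. Oasl1, which represses translation of Irf7, was the only gene that fell, from 44.2 to 29.6 TPM in MKOC cells and from 42.5 to 38.9 TPM in TJ cells (-0.47 ± 0.13, edgeR adjusted p = 0.0211), a call that was lost with limma on log2 TPM (adjusted p = 0.0941). Oasl1 and Oasl2 are neighbours on chromosome 5 and share under 1% of their 31-base words with any other gene, and the first fell in the edgeR test while the second rose. Ifi44, Mx1, Mx2 and Ifit3, all lower in Tsc2-/- MEFs, did not pass with rapamycin. Ifi44 was 3.53 and 2.89 TPM in MKOC cells and 1.68 and 2.47 TPM in TJ cells. Mx1 stayed between 0.437 and 0.723 TPM, from 19 to 29.9 estimated counts a library, a depth at which the error of its log2 fold change was 0.37.

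In antigen presentation, Tap2 alone passed, and it rested on 1 line. It was 13.9 and 13.6 TPM in untreated and treated MKOC cells and 18.0 and 29.0 TPM in TJ cells (log2 fold change 0.57 ± 0.20, edgeR adjusted p = 0.0482), and the log2 value within MKOC cells was 0.05 against 1.03 in TJ cells. The call was lost with DESeq2 (adjusted p = 0.0727), with DESeq2's size factors in edgeR (adjusted p = 0.0646) and with limma (adjusted p = 0.24). Tap1 was 6.53 and 4.60 TPM in MKOC cells and 10.6 and 12.1 TPM in TJ cells (0.05 ± 0.16). B2m was 1518 and 1620 TPM in MKOC cells and 1780 and 1739 TPM in TJ cells (0.02 ± 0.10). The heavy chains did not pass either, with H2-K1 at 274 and 252 TPM in MKOC cells and 365 and 383 TPM in TJ cells (-0.03 ± 0.10), and H2-D1 at 422 and 425 TPM and at 462 and 555 TPM (0.11 ± 0.11).

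**Figure D3:**
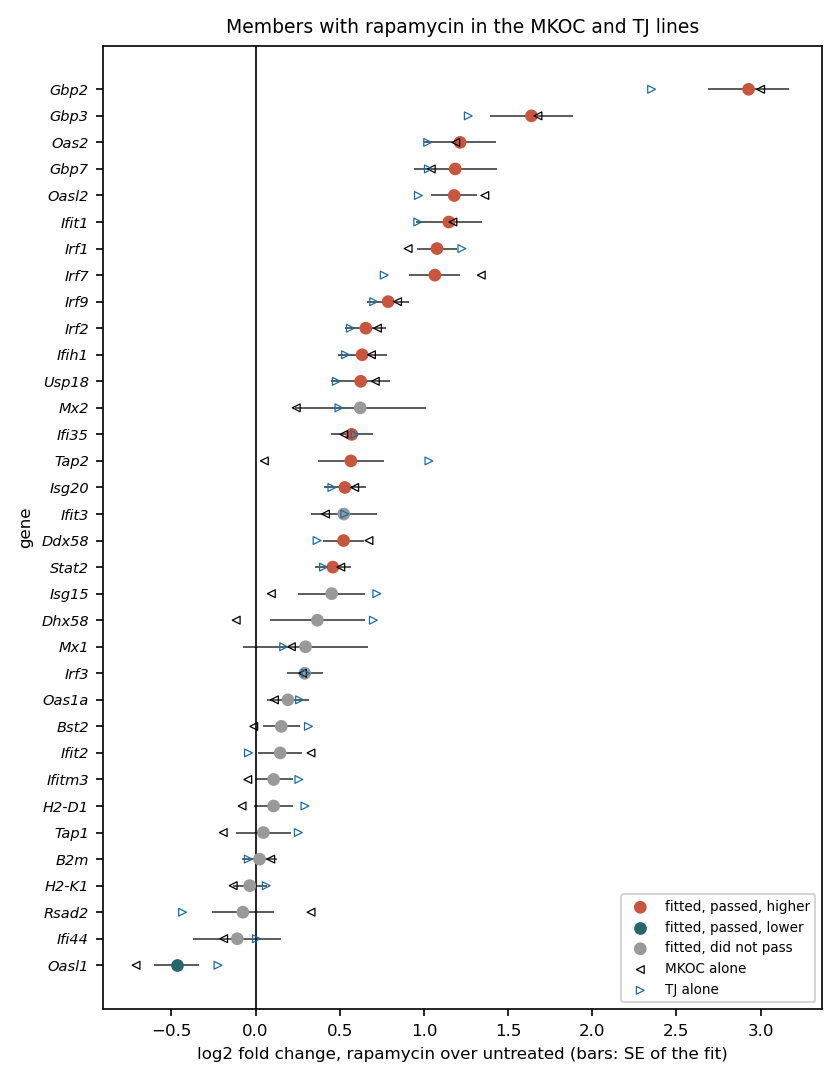
Log2 fold change with rapamycin for the 34 genes tested, with filled points for the edgeR fit over both lines, bars for its SE, and triangles for the change within MKOC and within TJ cells, computed from CPM with 0.5 added and so closer to 0 for genes of low counts. Red points rose, the green point fell and grey points did not pass at an adjusted p of 0.05. Gbp2 stands apart at 2.93, and the triangles of Tap2, Rsad2 and Dhx58 lie far apart.

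Of the 101 further pathway genes tested, 49 rose and 8 fell (48.5% and 7.92%), with a median log2 fold change of 0.47. The rises were most frequent among other interferon-stimulated genes, where 29 of 43 rose and 1, Daxx, fell. They were led by further guanylate-binding proteins, Gbp4 (0.410 to 2.90 TPM in MKOC cells and 0.853 to 5.55 TPM in TJ cells, log2 fold change 2.74), Gbp9 (4.62 to 28.2 TPM and 6.24 to 29.1 TPM, 2.40) and Gbp5 (2.11). Counting the members, 8 guanylate-binding protein genes were tested and 8 rose, and the 11 measured summed to 11.4 and 56.8 TPM in untreated and treated MKOC cells and to 20.1 and 75.7 TPM in TJ cells. Of 21 class I presentation genes, 7 rose and 2 fell. H2-T23, the nonclassical molecule Qa-1, went from 8.29 to 30.1 TPM and from 12.6 to 41.8 TPM (log2 fold change 1.79 ± 0.13, edgeR adjusted p = 1.79e-05), Tapbp, the chaperone tapasin, from 96.8 to 178 TPM and from 125 to 255 TPM (0.92 ± 0.11), and H2-T10 rose by 0.89. H2-Bl (-2.33, from under 3 TPM in each kidney library) and Calr (-0.42) fell. In class II presentation, the invariant chain Cd74 fell from 37.1 to 7.36 TPM in MKOC cells and from 154 to 80.7 TPM in TJ cells (-1.52 ± 0.24, edgeR adjusted p = 0.00124), Ifi30 fell as well (-0.73), and the protease Ctss rose from 0.339 to 1.15 TPM and from 0.378 to 1.13 TPM.

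Over all genes tested, 17.5% rose and 17.4% fell. Of 15 receptors and signalling components, 8 rose (53.3%), led by Il10rb (log2 fold change 0.77), the Jak kinase Tyk2 (0.76) and the phosphatase Ptpn6 (0.71). The 2 that fell (13.3%) were the phosphatase Ptpn2 (-0.49) and the kinase Jak1 (-0.38). Of 14 sensing genes, 4 rose, led by Zbp1 (2.01), the kinase Ikbke (1.42) and the receptor of double-stranded RNA Tlr3 (1.06), and the adaptor Mavs fell (-0.62, edgeR adjusted p = 0.00102). Transcripts of the interferons themselves reached at most 0.286 TPM. Over 17 interferon genes, including Ifnb1, the alpha genes, Ifng and the lambda genes Ifnl2 and Ifnl3, estimated counts summed to 11.8 in Tsc2+/+ and 1 in Tsc2-/- MEFs. They were 3 and 1.96 in untreated and treated MKOC cells and 2.40 and 3 in TJ cells, none of which exceeds the floor of 3 counts used here.

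**Figure D4:**
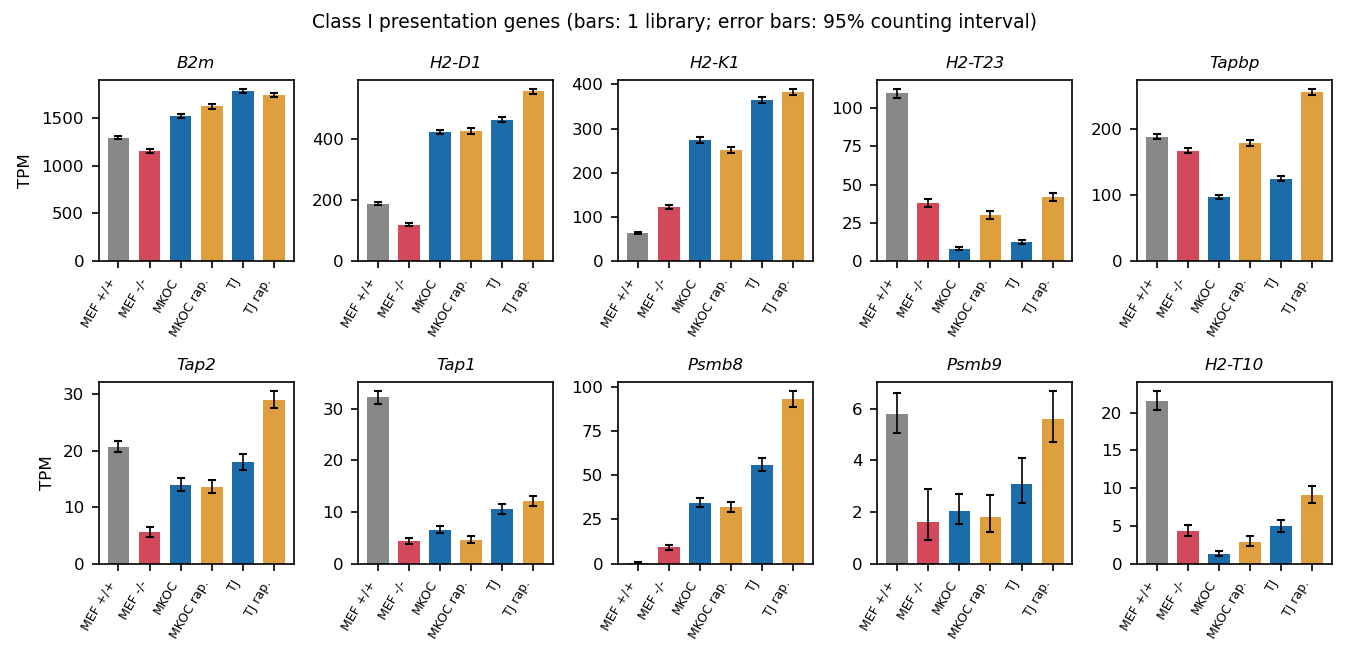
TPM of 10 genes of class I presentation in each library (bars, 1 library each, grey and red for Tsc2+/+ and Tsc2-/- MEFs, blue for untreated and orange for rapamycin-treated kidney lines), with 95% counting intervals as error bars and each panel on its own axis from 0. B2m and the chains H2-K1 and H2-D1 are highest in the kidney lines and did not pass the test with rapamycin, and H2-T23 and Tapbp are higher with rapamycin in both lines. Tap1, Tap2, Psmb8 and Psmb9 are higher with it in the TJ pair and not in the MKOC pair, and of these only Tap2 passed.

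The MEF and rapamycin comparisons shared no library. Of the 18 genes that were at least 2-fold lower in Tsc2-/- MEFs, 10 rose with rapamycin in the kidney lines (55.6%) and 1, Oasl1, fell. Of all 453 genes that were at least 2-fold lower in Tsc2-/- MEFs and were tested with rapamycin, 31.6% rose. Among the 16 other genes of the list, 7 rose (43.8%), against 16.9% of the 11009 other genes that passed both filters. The median log2 fold changes with rapamycin were 0.55 and 0.33 in these groups of the list and 0.23 over the 453 genes. Of the further pathway genes, 23 of 33 that were lower in Tsc2-/- MEFs rose with rapamycin (69.7%), as did 21 of 58 that were not (36.2%). Gbp2, Gbp3, Oas2, Oasl2 and Irf7 combined a log2 value below -2 between MEFs with one above 1 with rapamycin. Ifi44, Mx1 and Tap1 had a difference between MEFs at least as large but log2 values of -0.11, 0.30 and 0.05 with rapamycin.

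**Figure D5:**
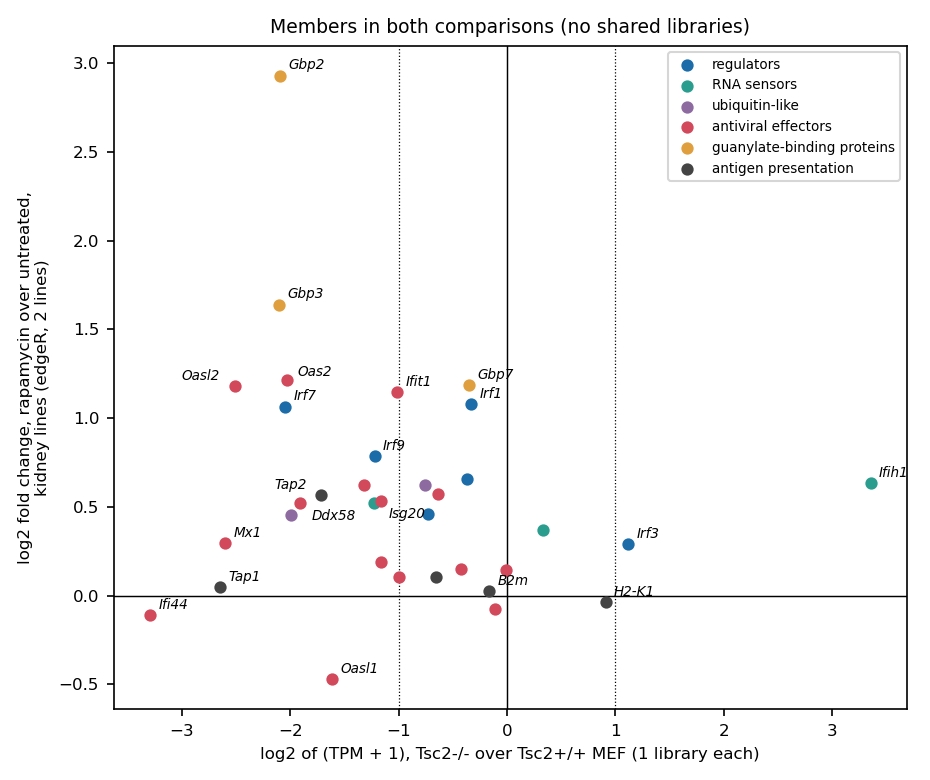
Each point is 1 of the 34 genes tested with rapamycin, coloured by role. The x axis gives the log2 ratio between MEF genotypes (TPM with 1 added, 1 library each, no test). The y axis gives the edgeR log2 fold change with rapamycin in the kidney lines, and dotted lines mark 2-fold between MEFs. The upper left quadrant holds, among others, Gbp2, Gbp3, Oas2, Oasl2 and Irf7, Oasl1 lies lowest at -0.47, and Ifih1 lies far right at 3.36 and 0.63.

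The third comparison set the tumor-derived TJ line beside MKOC, over 2 libraries each. A gene was counted where the lower library of 1 line was at least 2-fold above the higher library of the other, in TPM with 1 added. Of 32 genes with at least 1 TPM in a kidney library, only Ifit3 met this, with 8.13 and 12.0 TPM in untreated and treated TJ cells against 2.48 and 3.47 TPM in MKOC cells, a gap of 2.04-fold that fell under 2-fold with scaled libraries or with 5 added to TPM. Over 12414 genes, 0.556% were higher in TJ cells and 0.209% higher in MKOC cells. The next gaps were also higher in TJ cells, namely Tap1 and Isg15 (1.54-fold each), Rsad2 (1.46-fold), H2-K1 (1.33-fold), Tap2 and Ifitm3 (1.27-fold each) and Dhx58 (1.20-fold). Rsad2 was 4.47 and 5.37 TPM in untreated and treated MKOC cells and 11.5 and 8.27 TPM in TJ cells, and Ifitm3 was 203 and 196 TPM in MKOC cells and 258 and 311 TPM in TJ cells. Of the 95 further pathway genes with at least 1 TPM in a kidney library, Slfn2 (2.73-fold) and Cd74 (2.14-fold) were higher in TJ cells (2.11%). None was higher in MKOC cells. Both libraries of a line are the same line, so these gaps carry no test.

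The fourth comparison set the untreated kidney lines beside the MEFs. They differ in cell type, in culture and in genotype, since both MEF libraries were labelled p53-/- and the kidney lines were not. These differences cannot be told apart. Trp53 RNA was 121 to 149 TPM in all 4 kidney libraries. A gene was counted where both untreated kidney libraries were at least 2-fold below, or above, both MEF libraries, in TPM with 1 added. Of the 35 genes, 19 were lower and 3 higher in kidney lines, against 6.6% and 8.31% of 13653 genes. The largest gaps were in Ifit1 (1.45 and 4.27 TPM in untreated MKOC and TJ cells, 19.5-fold below the lower MEF library), Mx2 (18.0-fold) and Ifit3 (13.9-fold), followed by Gbp3 (11.3-fold), Ifi44 (8.95-fold) and Gbp2 (8.5-fold). Irf5 was at most 0.391 TPM in kidney lines. The 3 genes that were higher in kidney lines were Oasl1 (44.2 and 42.5 TPM against 15.1 and 4.25 TPM in MEFs), H2-D1 (2.24-fold) and H2-K1 (2.22-fold). Among further pathway genes, 18 of 100 were lower, led by Ifit3b, Ube2l6 and Iigp1, and 5 were higher, led by Mavs (126 and 138 TPM against 21.7 and 33.7 TPM), Psmb8 and Ptpn6.

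Several of the genes have near-copies, and the counting could divide reads between them. Of the 31-base words in the most abundant transcript, Oas1a shared 68.8% with transcripts of other genes, above all Oas1g, and Ifit3 shared 61.8%, all with Ifit3b. The shares were 27.4% for H2-D1, 23.3% for H2-K1, 14.2% for Ifitm3, 12.1% for Mx2, 10.5% for Mx1 and 10.2% for Ifit1, and under 10% for the other 27 genes. Summed with their copies, Ifit3 and Ifit3b were 681 and 159 TPM in Tsc2+/+ and Tsc2-/- MEFs (log2 fold change -2.09), and the Oas1 genes Oas1a, Oas1b, Oas1c and Oas1g were 152 and 61.0 TPM (-1.30). Mx1 with Mx2 gave -1.50. H2-K1 and H2-D1 with 8 H2-Q and H2-T genes summed to 489 and 382 TPM in MEFs and to 756 to 1079 TPM in kidney lines. The order between MEFs and kidney lines was thus the same for these sums as for Ifit3, Oas1a, Mx1, Mx2, H2-K1 and H2-D1. Some genes within the H2 sum went the other way, such as H2-T23, which was 2.85-fold lower in untreated kidney lines. Between the MEF genotypes the H2 sum was lower in Tsc2-/- MEFs (log2 fold change -0.35), whereas H2-K1 alone was higher (0.91).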

How the data were processed

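RNA was measured in 6 libraries (stranded mRNA kit). After adapter trimming, the authors quantified transcripts with kallisto (version not given in the sources used here) and deposited estimated counts, TPM, and lengths for 88198 transcripts. The methods give a human transcriptome, yet the deposited identifiers are those of mouse transcripts. The authors' deposited fold change (a ratio between the MEF libraries) was not used. Values were summed per gene symbol. Counts without a symbol (at most 0.468% of a library) were left out. Rounded counts went through filterByExpr and TMM normalization before edgeR's quasi-likelihood test (version 4.0.16, R 4.3.3) with the line as covariate, at an adjusted p of 0.05, with SE from the log2 fold change and its F value. Libraries were paired by line, as the labels name it, and their deviations correlated at 0.60 over 12952 genes. Other comparisons used TPM with 1 added, at least 1 TPM and a 2-fold limit, with no test. Steps were tested on simulated data. Alternatives were limma 3.58.1, DESeq2 1.42.0, other scalings, filters and pseudocounts. Members and lists were chosen with earlier results of these data known. Genes with values in every library were the 8 with the largest rapamycin, MEF and line differences each, plus antigen presentation, and up to 3 further genes a list and direction. A related gene counted in the lists is not reported here by name.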

Additional observations from a re-analysis of the deposited data

Results flagged for a closer look

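Rsad2, H2-K1 and H2-D1 moved in opposite directions with rapamycin in MKOC and TJ cells, by more than counting error in each line. These changes are on the scale of estimated counts with TMM normalization over the 6 libraries. The log2 change of Rsad2 was 0.32 in MKOC and -0.41 in TJ cells. That of H2-K1 was -0.16 and 0.094, and that of H2-D1 was -0.11 and 0.32. In TPM the opposite direction of H2-D1 was lost, at log2 values of 0.0099 in MKOC and 0.26 in TJ cells, and in TPM H2-K1 had -0.12 and 0.069. The sum of H2-K1, H2-D1 and their near-copies, which share sequence, had 0.057 and 0.30 in CPM without TMM normalization. That scale is not the one of the single genes, so the sign of the small MKOC value cannot be set against theirs. In TPM the sum had 0.074 in MKOC and 0.25 in TJ cells. Each line has 1 untreated and 1 treated library, so the difference between the lines was not tested.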

How the results depend on the processing

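With treatment alone (no replicate block for the cell line), 1 gene of the list passed with rapamycin in place of 18, and over all genes 1275 passed in place of 4526. The 6 other models, filters and thresholds called 15 to 20 genes. Tap2 lost its call with DESeq2, limma and DESeq2's size factors, Usp18 with DESeq2 and Oasl1 with limma (adjusted p = 0.0941), and Tap2, Usp18 and Oasl1 at a threshold of 0.01. Isg15 and Ifit3 passed with no filter on low counts and Irf3 with upper-quartile normalization. Without 1 line no residual degrees of freedom remained, so each line's own change stood in for it, and of 34 genes 6 moved by more than the spread between lines without MKOC and 4 without TJ, with no change of sign among called genes. Over all genes, the 2-fold differences between MEFs were 83.0% higher calls as deposited, 65.8% after scaling and 62.7% as TMM-normalized CPM. The list had 20, 24 and 24 genes at least 2-fold apart in those settings and 17 with 5 added to TPM, and Irf3 was under 2-fold with either scaling and with 5 added to TPM. Between TJ and MKOC cells the count fell from 1 to 0 with scaled libraries and to 0 with 5 added to TPM. The count between kidney lines and MEFs stayed at 20 to 22. With 1 library a condition, counting error is the only error known for the descriptive comparisons, and Irf5 (not tested), Mx1 and Mx2 had at most 34 counts in any kidney library.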

Other observations

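Ifih1, Trim25 and Psmb8 were each below 0.4 TPM in Tsc2+/+ MEFs and above 4 TPM in every other library. Trim25 was 35.5 TPM in Tsc2-/- MEFs and 22.9 to 30.8 TPM in kidney lines, and Psmb8 was 9.11 TPM and 31.8 to 93.2 TPM. These genes were picked out after their values were seen.

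The TPM of Psme2, a proteasome activator subunit, went from 174 to 688 TPM with rapamycin in MKOC cells and from 919 to 256 TPM in TJ cells, while its log2 change in CPM was 0.02 in MKOC cells and 0.31 in TJ cells. TPM and counts thus disagreed for this gene, which is no member of the list.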
